A study of Homo sapiens with 10 samples.

Results

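The genes described here are 30 immediate early genes and feedback inhibitors of mitogen-activated protein kinase (MAPK) signalling, taken as a fixed list of symbols and matched to the annotation of the array. Of the 30, 28 were measured, out of 17752 genes tested, and each was represented by its brightest probe; EGR2 and IER3 were not analysed here. The cells were NCI-H441, an established human lung adenocarcinoma line. Treated cells received CLEFMA, a synthetic curcumin analogue, at 1 µM for 12 h in medium with 0.1% DMSO (5 arrays), and control cells received the same volume of DMSO alone for 12 h (5 arrays, called untreated in 1 label field). Both groups are 1 cell line at 1 dose and 1 time. The series text gives 5 replicates per group, the treatment protocol 4 wells and the extraction protocol 3 biological replicates, and since no label states that each array is its own culture, p-values here describe array-to-array spread, which may be technical.

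Immediate early genes are transcribed within minutes of a growth factor or stress signal, without new protein synthesis. The ERK kinases, downstream of RAS, phosphorylate factors that sit with SRF on the serum response elements of genes such as FOS and EGR1, and cAMP response elements bound by CREB contribute at many of the same promoters. The products include the AP-1 subunits, EGR and KLF transcription factors, and inhibitors that close the loop: DUSP phosphatases remove the activating phosphates from MAP kinases, and Sprouty proteins restrain signalling between receptors and RAF. Transcripts of this feedback arm are often used as a readout of ERK pathway output.

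The promoters of EGR1 and FOS are printed because these genes had the lowest unadjusted p-values among the members, and that of DUSP1 because its difference was nearest 0. Each runs from 250 bases before to 50 bases after the start of transcription, 5′ to 3′ on the gene's own strand, from RefSeq (GRCh38.p14). The EGR1 window is chr5:138465229-138465528 on the plus strand, the FOS window is chr14:75278578-75278877 on the plus strand, and the DUSP1 window is chr5:172771146-172771445 on the minus strand. Capitals mark matches on either strand to the CArG box of SRF, to TGACG, the core of the cAMP response element, and to TATAAA.
EGR1: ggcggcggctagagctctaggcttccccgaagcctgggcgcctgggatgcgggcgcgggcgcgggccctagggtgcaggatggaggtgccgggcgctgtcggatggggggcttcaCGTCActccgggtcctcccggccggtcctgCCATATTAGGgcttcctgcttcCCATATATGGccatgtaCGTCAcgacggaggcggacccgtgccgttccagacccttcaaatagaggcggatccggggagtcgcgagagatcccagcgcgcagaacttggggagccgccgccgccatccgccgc
FOS: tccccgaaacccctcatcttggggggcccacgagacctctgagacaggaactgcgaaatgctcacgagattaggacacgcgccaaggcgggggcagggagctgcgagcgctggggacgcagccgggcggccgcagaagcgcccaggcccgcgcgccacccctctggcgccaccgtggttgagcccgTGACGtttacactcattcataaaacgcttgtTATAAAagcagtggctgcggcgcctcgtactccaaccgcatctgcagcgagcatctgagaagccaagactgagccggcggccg
DUSP1: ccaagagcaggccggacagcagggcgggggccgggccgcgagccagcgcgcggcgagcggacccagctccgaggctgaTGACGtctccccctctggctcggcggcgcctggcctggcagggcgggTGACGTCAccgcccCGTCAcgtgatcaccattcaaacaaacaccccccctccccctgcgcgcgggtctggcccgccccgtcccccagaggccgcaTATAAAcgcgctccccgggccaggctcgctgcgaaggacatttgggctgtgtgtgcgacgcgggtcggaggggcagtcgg
The EGR1 window held 2 CArG boxes, starting 105 and 83 bases before the start, and 2 TGACG matches. The FOS window held 1 TGACG match 64 bases before the start and 1 TATAAA match at 33 bases. The DUSP1 window held 4 TGACG matches, 2 of them overlapping within a TGACGTCA, and 1 TATAAA.

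Windows were available for 23 of the 30 members (29 windows, since some genes have several starts). A CArG box was present in 2 of the 29, those of EGR1 and EGR2, against 1.29% of all 35116 windows. TGACG was present in 15 of the 29 (24.6% of all windows) and TGACGTCA, which contains TGACG, in 3, those of DUSP1, DUSP8 and JUND (1.85%). TATAAA was present in 4 (11.5%), the AP-1 motif TGANTCA in 1, that of FOSL2 (7.71%), and the ETS motif CCGGAA in 6 (17.2%). These are matches of letters in a short window, searched on both strands, and say nothing of binding. Sequence further upstream was not searched, so a window without a match, as for the CArG box in FOS, does not mean the gene lacks one.

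Levels are given as log2 of the deposited linear signal plus 3 units after quantile normalization, a scale that understates differences of dim genes. Of the 10 arrays, control 3 correlated least with the rest on average (0.979, against 0.987 to 0.992), and for 313 genes it was over 1 log2 unit outside the range of the other controls, against at most 32 on any other control. On treated 5 that count was 81, against at most 1 on the other treated arrays. Of 12 measured lung epithelial markers 10 were above background on all arrays, among them EPCAM, KRT7 and NKX2-1, while SFTPC, the defining alveolar type 2 marker, was above background on none. Their summed level ran from 15609 to 17295 linear units of the deposited table on controls and from 13983 to 17056 on treated arrays. Of these 12 markers 10 had negative differences (48.5% of all genes), with a median of −0.15 (0.01 over all genes). CDH1 (−0.26 ± 0.10) and KRT8 (−0.24 ± 0.11) were lower at an unadjusted p under 0.05 (limma adjusted p = 0.488 and 0.539). That level was reached by 4.48% of all genes in the same direction. Of 6 fibroblast markers 3 were above background on all arrays, LUM, COL1A1 and DCN (control means 7.28, 6.26 and 2.63), and COL3A1 on none. The 6 summed to 156 to 317 on controls and 165 to 222 on treated arrays. PDGFRB, above background on 2 controls and 0 treated arrays, differed by −0.37 ± 0.14 (limma unadjusted p = 0.0225, adjusted p = 0.476). Of 6 leukocyte markers 3 were above background on all arrays, CD68, LYZ and CD14 (control means 8.42, 4.27 and 2.89), and ITGAM on none. These 6 summed to 311 to 484 on controls and 299 to 420 on treated arrays. The part of any other cell type in the values below was not tested.

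After 12 h of CLEFMA no member differed past the threshold when p-values were adjusted over all genes. In limma, 0 of 28 members were higher and 0 lower at an adjusted p under 0.05, where 0.265% of all genes were called higher and 0.0338% lower. The lowest members relative to control were EGR1 at 0.560 of the control level, DUSP6 at 0.639 and FOS at 0.662. At an unadjusted p under 0.05, 5 members were lower, namely EGR1, FOS, DUSP6, DUSP8 and SPRY2 (17.9% of those measured, against 4.48% of all genes), and 0 were higher (4.48% of all genes). Under median scaling in place of quantile normalization that background was 1017 genes lower (6.12% of 16620 tested) and 504 higher, against 795 each, and 6 members were lower. Treated and control values did not overlap for 3 members, EGR1, FOS and DUSP6, all with treated arrays below control (10.7% of those measured, against 1.04% of all genes with treated below control and 2.50% in either direction). The list as a whole had a median log2 difference of −0.03, against 0.01 over all genes, with 13 positive and 15 negative differences (51.5% and 48.5% of all genes).

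**Figure D1:**
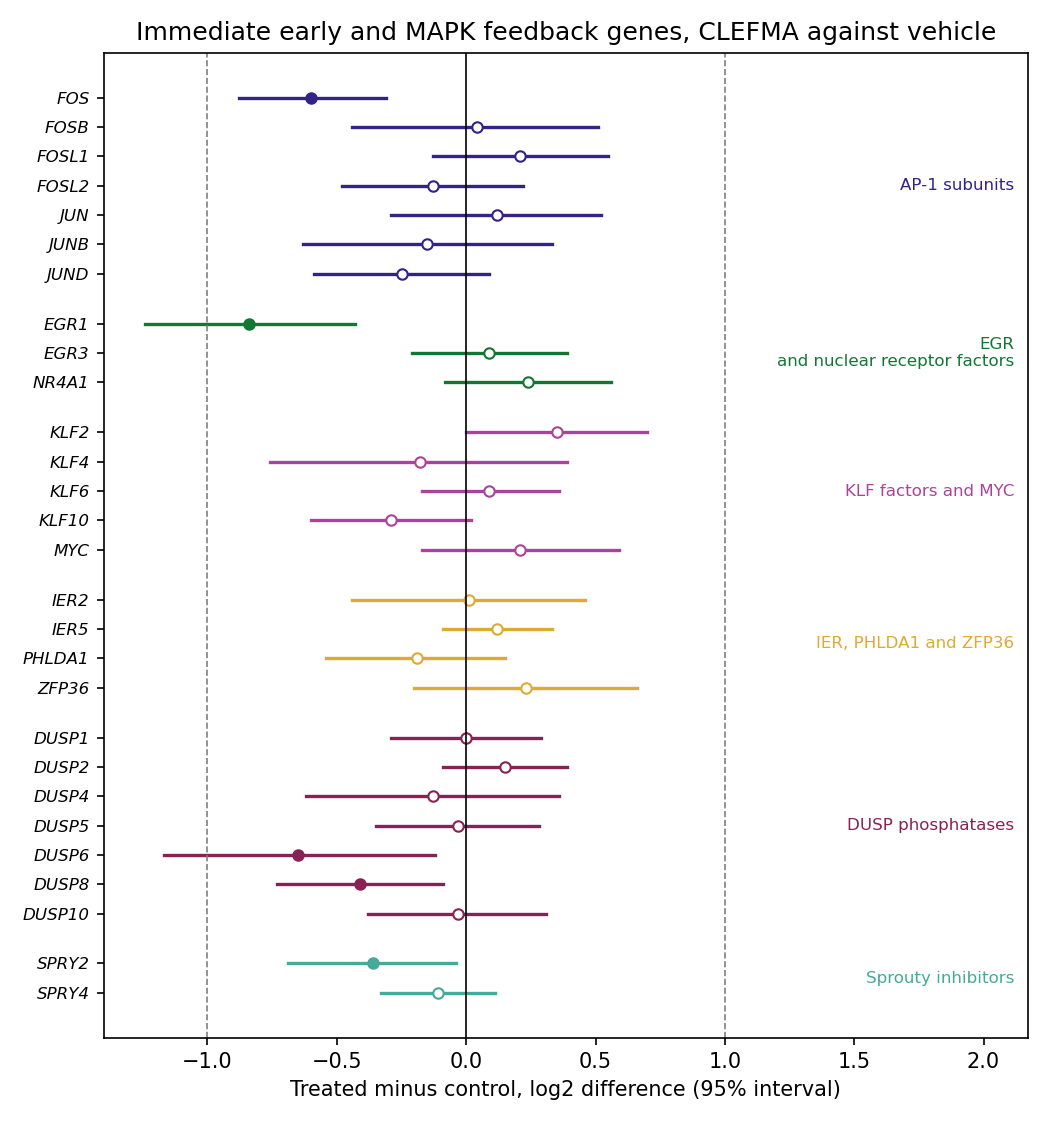
Treated minus control log2 difference (horizontal axis) of the 28 measured members by role; points are limma estimates from 5 arrays per group, lines their 95% intervals, filled points an unadjusted p under 0.05, and dashed lines a 2-fold change. The 5 filled points are EGR1, FOS, DUSP6, DUSP8 and SPRY2, all to the left of 0, and only the intervals of EGR1 and DUSP6 cross a dashed line.

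The intervals bound the size of change that these arrays leave possible. The 95% interval lay within a 2-fold change in either direction for 26 of 28 members (98.4% of all genes), the exceptions being EGR1 and DUSP6, whose intervals reach past a 2-fold lower level. It lay within a 1.5-fold change for 15 members, or 53.6%, against 81.8% of all genes, and the median standard error was 0.16 for members and 0.13 for all genes. No interval reached a 2-fold higher level. Above background, taken as a deposited log10 value above 0.2, were 26 members on all 10 arrays, NR4A1 on 9 and DUSP8 on 7. Of all 17752 genes 11182 were above background on all 10 arrays and 2475 on none. The interval shares and standard error of all genes thus include dimmer genes, whose differences this scale understates, and are not a like background.

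Among the AP-1 subunits, which pair as FOS-JUN dimers on DNA, FOS had the most negative difference of the 7 measured, although a test of FOS against the others was not made. Its log2 level was 6.15, 6.18, 6.66, 6.05 and 6.05 on controls 1 to 5. On treated 1 to 5 it was 5.68, 5.68, 5.69, 5.74 and 5.33. The highest treated array was thus below the lowest control, 4 of the treated arrays lay within a narrow band, control 3 was the highest of the 10 and treated 5 the lowest. The log2 difference was −0.60 ± 0.13 (SE, n = 5 per group; 95% interval −0.88 to −0.31), with an unadjusted p of 6.65e-04 and a limma adjusted p = 0.130. Without control 3 it was −0.49 and without treated 5 it was −0.52. It passed in 1 of 22 alternatives, with array weights (−0.47, limma adjusted p = 0.0435), and its adjusted p over the alternatives ran from 0.0435 to 0.341.

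The other 6 AP-1 genes had log2 differences between −0.25 and 0.21. FOSL1, the FRA1 subunit that is a slower target of ERK, was at 6.91 ± 0.28 (SD, n = 5) in controls and 7.13 ± 0.27 in treated cells, a difference of 0.21 ± 0.16 (SE). JUN, the partner regulated by JNK, was at 8.36, 8.07, 7.75, 8.37 and 7.39 on controls 1 to 5. Its treated values were 8.22, 8.24, 8.27, 8.06 and 7.74, inside the control range. The difference of JUN was 0.12 ± 0.19 (limma adjusted p = 0.849). JUND, the constitutively expressed subunit, differed by −0.25 ± 0.16, with control 3 at 10.94 and the other controls at 10.03 to 10.24; without control 3 the difference of JUND was −0.09. JUNB differed by −0.15 ± 0.22 and FOSB by 0.04 ± 0.22. FOSL2 differed by −0.13 ± 0.16.

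EGR1, a zinc finger factor whose transcription follows ERK activity through SRF, had the most negative difference of the 28. On controls 1 to 5 its log2 level was 8.05, 8.08, 8.30, 8.08 and 7.79. On treated 1 to 5 it was 7.41, 7.34, 7.38, 7.53 and 6.45. All treated arrays lay below all controls, and treated 5 was well below the other treated arrays. The difference was −0.84 ± 0.19 (95% interval −1.24 to −0.43), with an unadjusted p of 7.25e-04 and a limma adjusted p = 0.133. The spread added by treated 5 bore on this p: without that array the difference was smaller, −0.64, and passed (limma adjusted p = 0.0367). It also passed with a term for replicate number 5 (−0.84, limma adjusted p = 0.00711) and with control 3 and both arrays numbered 5 left out (−0.66, limma adjusted p = 0.0101). Each of these settings omits treated 5, the outlying array for EGR1, or fits it apart, so they are not separate support. EGR1 passed in no other alternative. Over all 22 alternatives the difference of EGR1 was between −0.91 and −0.64, the adjusted p between 0.00711 and 0.330, and the groups did not overlap in any. Taken between arrays of the same number, the difference averaged −0.71 over numbers 1 to 4 and was −1.34 at number 5.

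The related factor EGR3 differed by 0.09 ± 0.14 from a control level of 4.36 ± 0.24 (SD, n = 5), and a second EGR3 probe differed by 0.11. NR4A1, an orphan nuclear receptor induced by the same stimuli, was dim at 2.52 ± 0.23 in controls and 2.76 ± 0.27 in treated cells. Its difference was 0.24 ± 0.15, and its second probe was above background on 0 arrays. Neither differed beyond its error in the direction of EGR1; a test of EGR1 against them was not made.

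**Figure D2:**
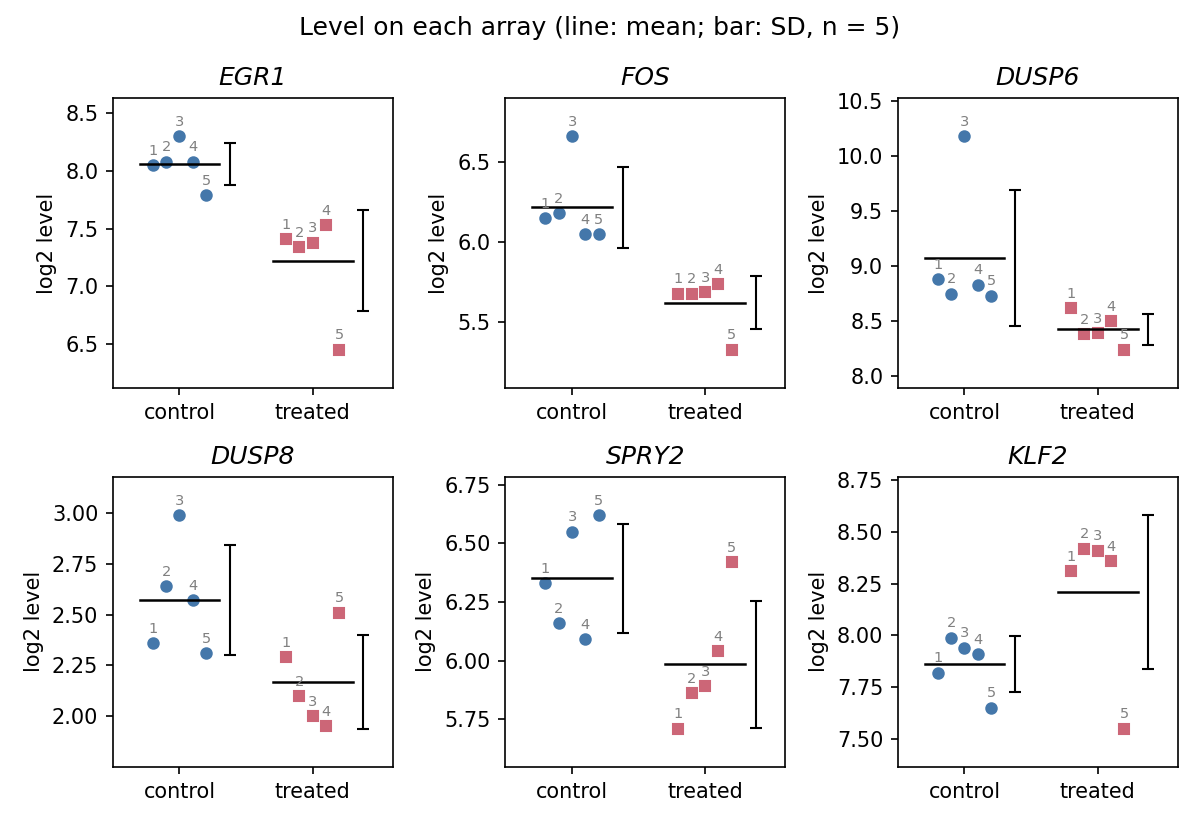
Log2 level on each array (vertical axis; each panel has its own range) for 6 members, with circles for control and squares for treated arrays, numbers for the replicate, a line for the mean and a bar for the SD (n = 5). Treated arrays lie below all controls for EGR1, FOS and DUSP6, and the groups overlap for DUSP8, SPRY2 and KLF2. Treated 5 stands apart for EGR1, FOS and KLF2, and control 3 for FOS and DUSP6.

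Among the KLF factors and MYC, no member reached an unadjusted p under 0.05, but KLF2 did in 8 of 22 alternatives and KLF10 in 5. KLF2, a Krüppel-like factor known from quiescent endothelium and lymphocytes, came nearest to a higher level, and it is described by array after its values were seen. On controls 1 to 5 it was at 7.82, 7.99, 7.94, 7.91 and 7.65. On treated 1 to 5 it was at 8.31, 8.42, 8.41, 8.36 and 7.55. Treated 1 to 4 were above all controls and treated 5 below all of them. The difference was 0.35 ± 0.16 (unadjusted p = 0.0505, limma adjusted p = 0.559). Without treated 5 it was 0.51 (limma adjusted p = 0.0616), and it passed in none of the 22 alternatives, where its adjusted p ran from 0.0616 to 0.766.

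KLF10, a target of both TGF-beta and growth factors, differed by −0.29 ± 0.14 on its brightest probe and by −0.16 on each of the other 2. KLF4 differed by −0.18 ± 0.26, with control 3 at 6.18 and the other controls at 4.40 to 5.28; a second, dimmer KLF4 probe differed by 0.05. KLF6 was among the least displaced, at 0.09 ± 0.12. MYC, the growth regulator whose transcript and protein are both short lived, was measured well by 2 probes that disagreed in sign. The brighter tested probe was at 8.85, 8.90, 7.94, 8.96 and 8.70 on controls 1 to 5 and at 8.77, 9.00, 8.81, 8.99 and 8.82 on treated 1 to 5. The other MYC probe was at 8.76, 8.48, 9.14, 8.72 and 8.51 on controls and at 8.53, 8.58, 8.62, 8.59 and 8.30 on treated arrays. Control 3 was the lowest array on the former and the highest on the latter. The differences were 0.21 ± 0.17 (limma adjusted p = 0.716) and −0.20, so no direction can be given for MYC.

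The remaining early response genes were close to their control levels. IER2, a small nuclear protein, differed by 0.01 ± 0.21, with treated 5 the lowest of all arrays (3.46) and treated 2 the highest (4.74). IER5, linked to heat shock factor activity, differed by 0.12 ± 0.10. PHLDA1, a pleckstrin homology-like protein and a sensitive ERK pathway transcript, was at 9.76 ± 0.25 (SD, n = 5) in controls and 9.57 ± 0.30 in treated cells, a difference of −0.19 ± 0.16 (SE) that was −0.06 without treated 5. ZFP36, tristetraprolin, which binds AU-rich elements and destabilises many early transcripts, differed by 0.23 ± 0.20. Control 3 was at 6.61, against 7.66 to 7.72 on the other controls, and without it the difference of ZFP36 was 0.01.

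Of the 7 DUSP genes, 2 were lower at an unadjusted p under 0.05 and 0 higher (4.48% of all genes in each direction). None of the 7 passed over all genes. DUSP6, the cytoplasmic phosphatase that acts on ERK and whose transcript follows ERK activity, was lower on both of its probes. On the brighter probe controls 1 to 5 were at 8.88, 8.75, 10.18, 8.83 and 8.73. Treated 1 to 5 were at 8.62, 8.38, 8.39, 8.50 and 8.24. All treated arrays lay below all controls, but control 3 stood far above the rest. The difference was −0.65 ± 0.24 (95% interval −1.17 to −0.12; unadjusted p = 0.0205, limma adjusted p = 0.474). Without control 3 it was −0.37, with a lower unadjusted p of 0.00190 (limma adjusted p = 0.215), so the size of the difference rests largely on that array while the order of the groups does not.

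The second DUSP6 probe, which the choice of the brightest probe did not use, gave 6.55, 6.40, 7.07, 6.72 and 6.44 on controls 1 to 5. It gave 6.50, 6.35, 6.10, 6.07 and 5.30 on treated 1 to 5. Here the groups overlapped at treated 1, and treated 5 was the lowest array. The difference was −0.57 ± 0.21 (unadjusted p = 0.0197, limma adjusted p = 0.578 over all probes tested). Both probes were read on the same arrays and are not separate replicates.

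DUSP8, a phosphatase of JNK and p38, was dim: it was above background on 5 control arrays and 2 treated arrays. Its levels were 2.36, 2.64, 2.99, 2.57 and 2.31 on controls 1 to 5 and 2.29, 2.10, 2.00, 1.95 and 2.51 on treated 1 to 5. Treated 5 lay inside the control range and the other treated arrays below it. The difference was −0.41 ± 0.15 (unadjusted p = 0.0167, limma adjusted p = 0.451), and because the signal was close to background its size ran from −0.97 to −0.17 over the alternatives. The other 5 phosphatases had differences between −0.13 and 0.15. DUSP1, the nuclear phosphatase induced by stress and mitogens, differed by 0.00 ± 0.13, with controls at 6.59 to 7.21 and treated arrays at 6.70 to 7.02. DUSP5, a nuclear phosphatase restricted to ERK, differed by −0.03 ± 0.15, and DUSP10, which acts on JNK and p38, by −0.03 ± 0.16. DUSP4 differed by −0.13 ± 0.22 and DUSP2 by 0.15 ± 0.11; both are nuclear, both were dim here, and a second DUSP4 probe was above background on 0 arrays.

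Of the Sprouty inhibitors, SPRY2 was at 6.33, 6.16, 6.55, 6.09 and 6.62 on controls 1 to 5. On treated 1 to 5 it was at 5.71, 5.86, 5.89, 6.04 and 6.42. Treated 1 to 4 were below all controls, while treated 5 lay among them. The difference of SPRY2 was −0.36 ± 0.15 (unadjusted p = 0.0296, limma adjusted p = 0.501). Its unadjusted p was under 0.05 in 17 of 22 alternatives and reached 0.0782 without treated 1. SPRY4 was at 4.92, 5.09, 5.06, 5.42 and 5.25 on controls and at 5.03, 4.94, 5.13, 5.01 and 5.04 on treated arrays, overlapping throughout. Its difference was −0.11 ± 0.10 (limma adjusted p = 0.727), and a second SPRY4 probe was above background on 0 arrays.

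**Figure D3:**
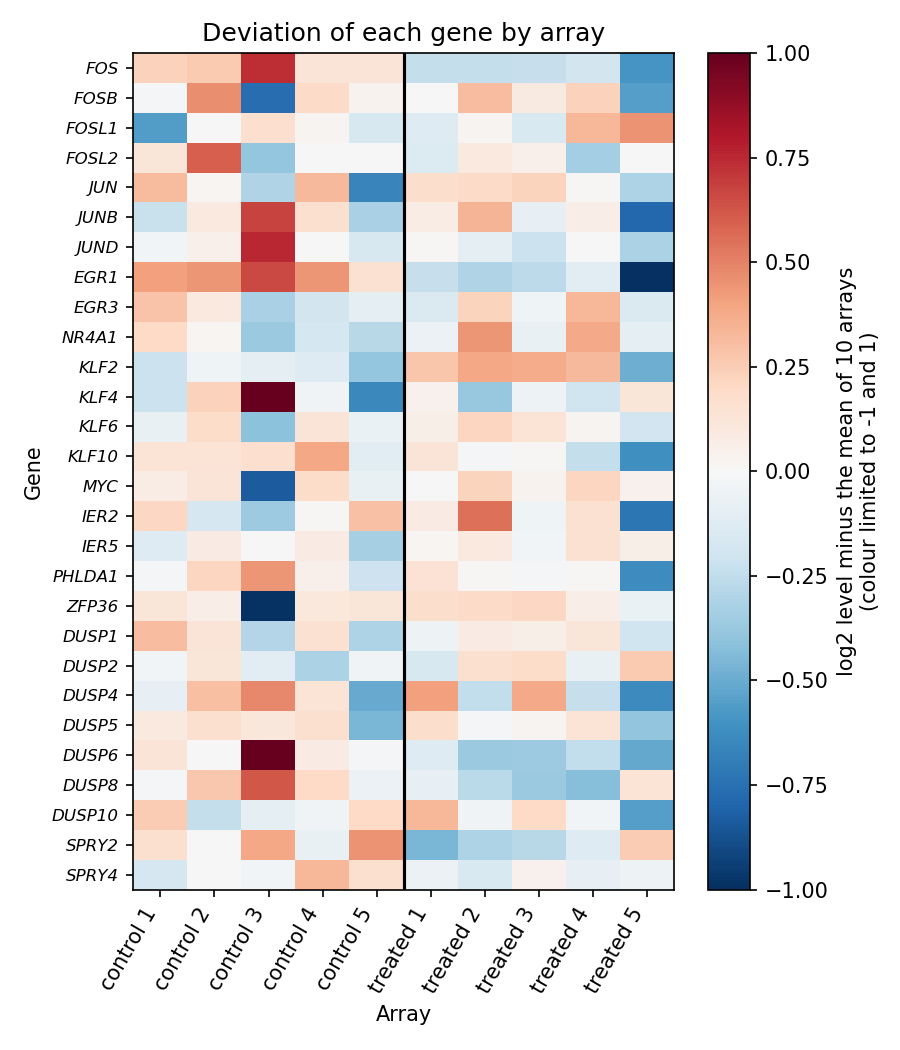
Log2 level of each member (rows) on each array (columns) minus the mean of its 10 arrays, red above and blue below, with colours limited to 1 log2 unit and a line between control and treated arrays. EGR1 and FOS are red on all controls and blue on all treated arrays, and the strongest colours of other genes lie on control 3 and treated 5.

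Extreme values of the members gathered on 2 arrays. Control 3 held the highest value of 9 members and the lowest of 7 out of 28. Treated 5 held the lowest value of 11 members and the highest of 2, and the median deviation of the members from their means was −0.26 on treated 5, against −0.09 to 0.11 on the other arrays. EGR1, FOS, JUNB, JUND, PHLDA1, DUSP4 and DUSP6 had both extremes there, with control 3 highest and treated 5 lowest. The same counts and the median deviation were not taken over all genes, so they cannot be read as particular to the members. Over all genes, 313 lay over 1 log2 unit outside the other controls on control 3. On treated 5, 81 lay that far outside the other treated arrays. With treated 5 left out the median difference of the list was 0.06 in place of −0.03, and treated and control values did not overlap for 6 members (3.80% of all genes in that setting). Whether the 2 arrays differ in the cells or in their handling was not tested.

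The rest of the pathway was examined through 5 further lists, and none of their 104 measured genes passed over all genes in limma. Of 15 measured growth factor ligands and receptors, 0 were higher and 0 lower at an adjusted p under 0.05, while at an unadjusted p under 0.05 there was 1 higher gene and 2 lower genes, a level reached by 4.48% of all genes in each direction, which is the background for the counts of the other lists as well; the median difference was 0.11. The 2 lower genes and EGF, BTC and HBEGF encode ligands of the EGF receptor, and the last 3 differed by 0.31, 0.13 and 0.11. TGFA, transforming growth factor alpha, was at 7.49 ± 0.16 (SD, n = 5) in controls and 7.08 ± 0.12 in treated cells, without overlap, a difference of −0.41 ± 0.10 (unadjusted p = 0.00133, limma adjusted p = 0.193). EREG, epiregulin, was at 5.15 ± 0.63 and 4.21 ± 0.40, a difference of −0.94 ± 0.28 (unadjusted p = 0.00600, limma adjusted p = 0.357), with overlap. Without control 3 the difference of EREG was −0.66. Of 19 measured genes of the RAS to MAPK cascade, 0 were higher and 3 lower at the unadjusted level, with a median of −0.07. MAP2K3, an activator of p38, differed by −0.65 ± 0.20 (limma adjusted p = 0.373) and GAB1, a docking protein of receptor kinases, by −0.57 ± 0.18 (limma adjusted p = 0.383). Without control 3 these differences were −0.47 for MAP2K3 and −0.41 for GAB1.

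The 10 measured transcription factors that act on immediate early promoters had a median difference of −0.11, with 0 at an unadjusted p under 0.05. The actin-regulated SRF cofactors MRTFB and MRTFA differed by −0.55 ± 0.25 and −0.45 ± 0.22 (limma adjusted p = 0.560 and 0.578), and SRF itself by 0.26 ± 0.23. Without control 3 the differences were −0.28 for MRTFB, −0.24 for MRTFA and 0.00 for SRF. Of 38 other primary response genes, 1 was higher and 4 lower at the unadjusted level, with a median of −0.04. SGK1, a serum- and glucocorticoid-induced kinase, differed by −0.44 ± 0.11, with all treated arrays below all controls (unadjusted p = 0.00195, limma adjusted p = 0.225), and IL6, a dim cytokine transcript, by 0.26 ± 0.09, with all treated arrays above all controls (limma adjusted p = 0.451). Of 22 other feedback and delayed targets, 1 was higher and 0 lower at the unadjusted level, with a median of −0.04. That gene was PEA15, which holds ERK in the cytoplasm, at 0.40 ± 0.14 (limma adjusted p = 0.446), with all treated arrays above all controls; without control 3 it was 0.26. EPHA4, an ephrin receptor, differed by −0.27 ± 0.13 (limma adjusted p = 0.567). ETV5, an ETS factor induced through ERK, differed by 0.22 ± 0.15 (0.11 without control 3) and SPRED1, a Sprouty relative, by −0.25 ± 0.14.

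**Figure D4:**
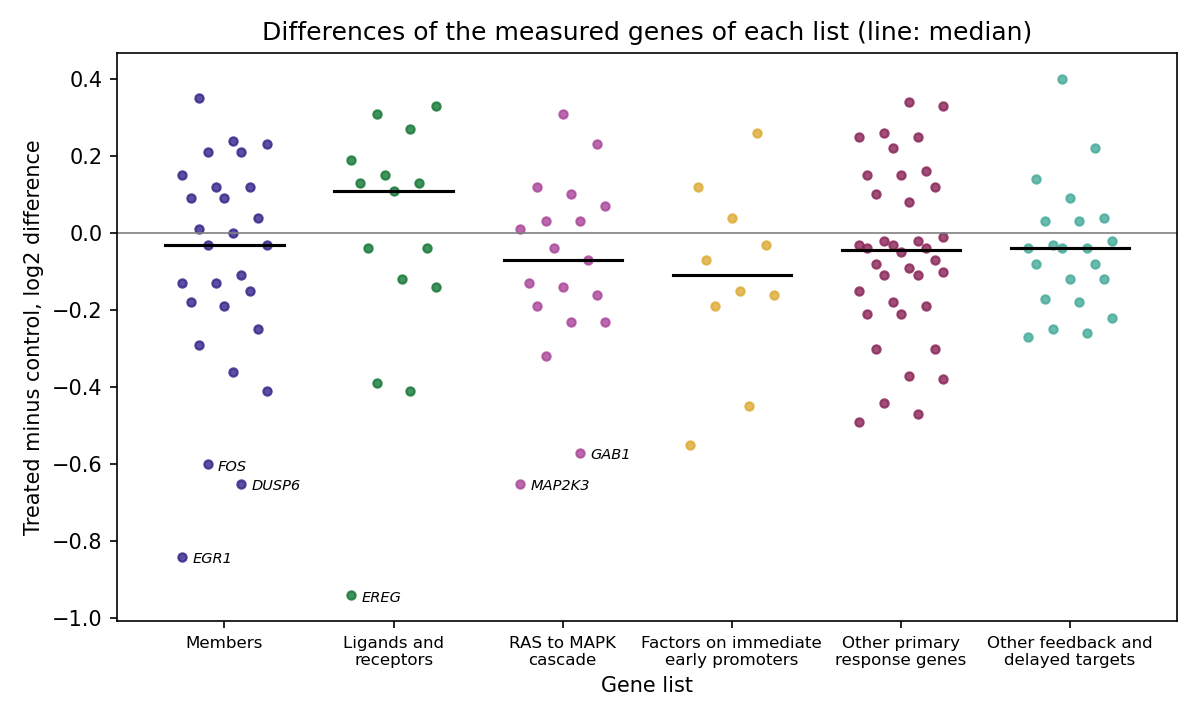
Treated minus control log2 difference (vertical axis) of each measured gene in the 28 members and the 5 further lists (horizontal axis), with a line at the median of each list and names at differences below −0.55. Medians lie between −0.11 and 0.11, and EREG, EGR1, MAP2K3, DUSP6, FOS and GAB1 are the lowest points.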

How the data were processed

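RNA of control and treated NCI-H441 cells was read on 10 Illumina HumanWG-6 bead arrays, per the labels' protocols. The authors' deposited table holds log10 values of 48803 probes; how its background was removed and whether arrays were scaled to each other is not given in the sources used here. The log10 base was read from the values and is not stated: the brightest probe is 2672 to 3292 times the median of its array read as log10, but 10.8 to 11.5 times read as log2, and 24.2% to 25.2% of probes sit at each array's lowest value. A table of 10 scanner intensity columns, whose names match no sample, enters no result; its mean over columns was looked at once while the scale of the deposited table was worked out.

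Here log2 of the linear value plus 3 units was quantile normalized, probes with a mean above the 25th percentile (1.59) were kept (44606), and genes were named from the platform annotation (27578 probes with 1 symbol, 27541 updated by gene identifier, 13 with several, 21212 not listed). Each of 17752 genes took its brightest probe. The comparison used limma 3.58.1 (R 4.3.3), without covariate, with Benjamini-Hochberg adjustment over all genes. The fit was tested on simulated data with independent noise of equal spread on every array. That setting has no outlying arrays such as control 3 and treated 5, so it does not check the p-values in their presence. The members and lists were chosen with earlier results of these data known. All members are reported. Array values are given for those at an unadjusted p under 0.05 or without overlap and for FOS, EGR1, JUN, DUSP6, SPRY4 and MYC. IER3, also in the rule, was not analysed here. Other lists are named by their passing genes or else their 2 lowest p-values. ETV5, SPRED1, SRF and KLF2 by array were added after their values were seen. EGF, BTC and HBEGF are also named outside this rule. Settings tried comprised offset, scaling, filter, probe rule, variance model, array weights, replicate block, a term for replicate number 5, and omitted arrays.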

Additional observations from a re-analysis of the deposited data

Results flagged for a closer look

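In 10 of 56 sets of 5 arrays (28 members in each group) the gap between an extreme array and its neighbour exceeded 0.71 of the group's range, Dixon's 95% critical value. Chance flags about 5% of independent sets, and these sets share arrays. The rule was not applied to all genes, so the share among all genes is not known. Of the 10, 5 were on control 3: FOS was at 6.66 (other controls 6.05 to 6.18), JUND at 10.94 (10.03 to 10.24) and DUSP6 at 10.18 (8.73 to 8.88) on the high side, MYC at 7.94 (8.70 to 8.96) and ZFP36 at 6.61 (7.66 to 7.72) on the low side. On treated 5, 4 members were low: FOS at 5.33 (other treated arrays 5.68 to 5.74), EGR1 at 6.45 (7.34 to 7.53), KLF2 at 7.55 (8.31 to 8.42) and PHLDA1 at 9.04 (9.65 to 9.81). The remaining one was DUSP5 on control 5, at 7.19 (7.74 to 7.81).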

How the results depend on the processing

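The 22 alternatives kept the sign of 15 of the 28 members, and FOS, EGR1 and DUSP6 had no overlap between groups in any. One member, lower in treated cells, passed over all genes with array weights (FOS), with a term for number 5 (EGR1) and with control 3 and both arrays numbered 5 left out (EGR1), against 0 as reported; with 1 array left out the count was 0 to 1. In no alternative did a member pass as higher or a gene of the 5 further lists pass. The count of members higher at an unadjusted p was 1 on genes above background on at least 5 arrays, with probes averaged, with trend and robust variance, with array weights, with the replicate block, with a term for number 5, and with control 3 and both numbered 5 left out, and 0 to 1 with 1 array left out. Members lower at that level numbered 6 under median scaling, the replicate block and a term for number 5, and 4 without control 3, treated 2 or treated 3, against 5. Deviations from the group means correlated at 0.25 between the arrays numbered 5 and at 0.19 between those numbered 2, each the best partner of the other, but at −0.09 to 0.09 for the other 3 numbers, so the numbers were not taken as pairs throughout. Members without overlap numbered 8 with the 3 arrays left out (10.3% of all genes in that comparison of fewer arrays) and 3 to 6 with 1 array left out, where the median difference was −0.09 to 0.06. Members with small differences changed sign. FOSB was −0.05 under median scaling, −0.02 on the deposited values, −0.08 with array weights and −0.05 with the 3 arrays left out; IER2 was −0.08 and −0.06 in the first of these settings. SPRY4 was 0.04 with probes averaged. With array weights DUSP4 was 0.02 and DUSP10 0.08. With the 3 arrays left out JUN was −0.07, JUNB 0.09, MYC −0.01 and DUSP10 0.12. With 1 array left out FOSB ran from −0.15 to 0.18, IER2 from −0.13 to 0.19, KLF4 from −0.37 to 0.08, JUN from −0.03 to 0.21, JUNB from −0.25 to 0.03, DUSP4 from −0.27 to 0.01, DUSP5 from −0.15 to 0.06 and DUSP10 from −0.12 to 0.10. The causes were not tested. Over all genes 47 were higher and 6 lower, against 26 and 2 on the deposited values and 71 and 16 with array weights, the extremes of the alternatives. Signal near background limits DUSP8, NR4A1, DUSP4 and DUSP2.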
